A study of Mus musculus with 4 samples.

Results

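The HoxD cluster is a row of 9 homeobox genes on mouse chromosome 2, Hoxd1, Hoxd3, Hoxd4, Hoxd8, Hoxd9, Hoxd10, Hoxd11, Hoxd12 and Hoxd13, and it was followed here on microarrays of mouse embryos with and without Jmjd3. The members were taken by name, and every array probe whose accession belongs to one of them was used. That gave 12 probes for the 9 genes, among 18224 named genes on the array. Of the 9 genes, 8 were measured well enough to be tested, among 13584 genes tested in all. Hoxd12 was not well above background on any array.

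The arrays compare Jmjd3-/- with wild-type embryos at E9.5, both from matings of Jmjd3+/- mice. Total RNA came from the tail-ward part of the embryo, with 2 RNA samples per genotype and 1 array for each. Jmjd3-/- samples are numbered 1 and 9 in the labels, and wild-type samples 3 and 4. Paired values below are in that order, 1 before 9 and 3 before 4. Strain, the deleted part of Jmjd3 and the number of embryos behind a sample are not given in the sources used here. The tissue is a mixture of many cell types, so fewer cells of a type and less RNA per cell cannot be told apart.

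Hox genes encode transcription factors that tell cells where they lie along the body axis. Within a cluster they lie in the order in which they are used: genes at the Hoxd1 end are switched on early and act far forward, and genes at the Hoxd13 end are switched on last, in the tail bud, the hindgut and cloacal region and the limb buds. Silent Hox genes are covered by the Polycomb mark, methyl groups on a lysine of histone H3. Jmjd3, whose current gene name is Kdm6b, encodes an enzyme that removes this mark.

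The sequences just before the gene starts are shown for the 3 genes on which the results turn, the genes at both ends of the cluster and Hoxd10, whose difference had the smallest standard error among the members. They are the 250 bases before the start in RefSeq (build GRCm38.p6), all on the plus strand and written 5′ to 3′. Capitals mark matches of any of 4 motifs, the CCAAT box, the TATA box, the nuclear receptor half-site and the caudal site, each searched on both strands.
Hoxd1, chr2:74762730-74762979: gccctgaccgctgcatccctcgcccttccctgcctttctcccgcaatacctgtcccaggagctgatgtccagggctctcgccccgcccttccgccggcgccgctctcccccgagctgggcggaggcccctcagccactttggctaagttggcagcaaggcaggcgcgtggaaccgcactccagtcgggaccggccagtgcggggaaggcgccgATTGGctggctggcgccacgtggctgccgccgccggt
Hoxd10, chr2:74691641-74691890: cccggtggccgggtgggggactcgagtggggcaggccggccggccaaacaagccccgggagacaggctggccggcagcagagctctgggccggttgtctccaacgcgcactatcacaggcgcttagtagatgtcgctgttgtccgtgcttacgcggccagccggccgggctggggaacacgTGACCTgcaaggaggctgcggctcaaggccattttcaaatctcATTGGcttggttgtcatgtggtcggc
Hoxd13, chr2:74667975-74668224: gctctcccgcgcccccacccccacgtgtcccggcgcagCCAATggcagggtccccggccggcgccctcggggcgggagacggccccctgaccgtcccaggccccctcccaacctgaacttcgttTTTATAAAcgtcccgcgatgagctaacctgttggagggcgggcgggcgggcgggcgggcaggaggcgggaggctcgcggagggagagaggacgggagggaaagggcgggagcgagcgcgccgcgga

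All 3 windows are rich in G, C and the dinucleotide CpG, which is common in Polycomb-bound promoters of mammals but not particular to them. Polycomb binding was not measured here. The window of Hoxd1 held 24 CpG and was 71.6% G or C, that of Hoxd10 held 20 (65.6%), and that of Hoxd13 held 31 (74.4%). The medians over 32851 RefSeq windows of the same length were 6 CpG and 52.4%. By contrast, the window of Hoxd4 held 3 CpG and the first of the 2 windows of Hoxd11 held 2, while its second window held 20 (60.4% G or C). RefSeq matched all 9 genes, with 10 windows.

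The motifs were spread over both ends of the cluster. The caudal site (TTTATG), which proteins of the Cdx family bind and which overlaps with the sites of the Hox proteins of the Hoxd9 to Hoxd13 end, was present before Hoxd3, Hoxd4 and Hoxd11, and in 10.8% of all windows. The TATA box (TATAAA) was present before Hoxd4 and Hoxd13 (12.4% of all windows), where Hoxd13 has overlapping matches on both strands. The CCAAT box was present before Hoxd1, Hoxd3, Hoxd4, Hoxd8, Hoxd10, Hoxd12 and Hoxd13 (33.8% of all windows). The nuclear receptor half-site (AGGTCA), to which retinoic acid receptors bind in pairs, was present before Hoxd3, Hoxd4, Hoxd8 and Hoxd10 (14.0% of all windows). A match describes the letters only.

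Values below are log2 processed signals less the 75th percentile of their array, so 0 is a probe as bright as that percentile, and differences are Jmjd3-/- less wild-type, also on the log2 scale. Between 59.8% and 63.0% of 41174 probes were well above background on an array, the 75th percentile of the intensity lay between 578 and 627, and the number of arrays limits the precision. All 4 arrays lay on 1 slide with the Jmjd3-/- arrays at its ends, so position on the slide and genotype cannot be told apart. The wild-type arrays were the closer pair, with 157 genes more than 2-fold apart against 431 for the Jmjd3-/- arrays. The probe of Kdm6b read 0.35 and 0.11 in Jmjd3-/- against 2.15 and 2.23 in wild-type, a log2 difference of -1.96 (SE 0.12, limma adjusted p = 0.149). It would check the labels only if it lies in the deleted part.

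Along the cluster the differences ran from positive to negative. The 4 genes from Hoxd1 to Hoxd8 were higher on both Jmjd3-/- arrays than on both wild-type arrays, Hoxd9 did not separate the genotypes, and Hoxd10, Hoxd11 and Hoxd13 were lower on both Jmjd3-/- arrays. No member passed the test across all genes (0 of 8 at an adjusted p under 0.05, limma), where 0.0368% of all genes passed, 0.0221% as higher and 0.0147% as lower. At an unadjusted p under 0.05 (limma), 2 members were higher, Hoxd1 and Hoxd3, against 5.15% of all genes, and 3 were lower, Hoxd10, Hoxd11 and Hoxd13, against 5.93%. Arrays of the genotypes did not overlap for 7 of 8 members, 4 higher and 3 lower. Such separation was common: 23.0% of all genes were separated as higher and 23.7% as lower, 46.8% in all. More than 1.5-fold apart were Hoxd1 as higher (2.72% of all genes) and Hoxd10, Hoxd11 and Hoxd13 as lower (5.13%).

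**Figure D1:**
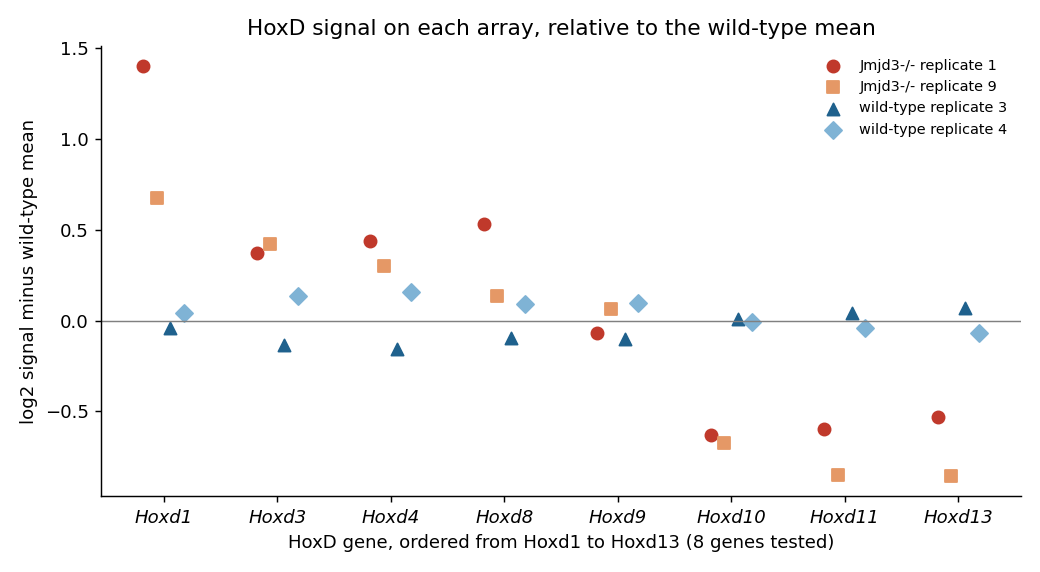
Log2 signal of the 8 tested HoxD genes on each array, less the wild-type mean of the gene (vertical axis), in order from Hoxd1 to Hoxd13 (horizontal axis); each point is 1 array. The Jmjd3-/- points lie above the wild-type points from Hoxd1 to Hoxd8, mix with them at Hoxd9 and lie below them at Hoxd10, Hoxd11 and Hoxd13.

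Hoxd1, the first gene of the cluster, had the largest difference of any member. Its processed intensity was 1545 and 895 in Jmjd3-/- against 565 and 628 in wild-type. On the log2 scale these were 1.36 and 0.63 against -0.08 and 0.0017. Replicate 1 stood apart even from its fellow Jmjd3-/- array, by 1.65-fold, while the wild-type arrays lay 0.09 apart on the log2 scale. The mean was 2.05-fold that of wild-type, a log2 difference of 1.04 (SE 0.27, 95% interval 0.26 to 1.82, limma adjusted p = 0.373). The difference was 0.67 without Jmjd3-/- replicate 1 and 1.40 without replicate 9.

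Hoxd3 helps to pattern the neck vertebrae and the hindbrain, and 2 probes measured it. The brighter probe, A_51_P455040, read -0.89 and -0.85 in Jmjd3-/- against -1.40 and -1.13 in wild-type, with the Jmjd3-/- arrays the closer pair. The log2 difference was 0.40 (SE 0.12, 95% interval 0.048 to 0.75, limma adjusted p = 0.413), about 1.32-fold. It was 0.26 with normexp, 0.26 without wild-type replicate 3 and 0.61 with the mean of both probes. The dimmer probe, A_52_P209132, was well above background on both Jmjd3-/- arrays and on no wild-type array. Its processed intensity was 28.2 and 18.9 in Jmjd3-/- and 13.3 and 13.9 in wild-type. With the planned processing the Jmjd3-/- mean was 1.76-fold that of wild-type. The fitted log2 difference was 0.81 (95% interval 0.24 to 1.39, limma adjusted p = 0.422 across probes), but only 0.28 with normexp background correction, and 0.56 without Jmjd3-/- replicate 1. Though not well above background themselves, both wild-type signals exceeded the lowest signal that was so on their array. The 1.76-fold is thus the fitted value and no lower bound. Both probes had the same sign, but the dimmer one passed the filter only through the Jmjd3-/- arrays, where it was higher. Its sign is therefore no separate support for that of the brighter probe, and the 0.61 includes it.

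In the RefSeq annotation the span of Hoxd3 overlaps that of Hoxd4, and the span of Hoxd10 that of Hoxd11, so a probe of one may also read transcripts of its neighbour, which was not tested. Hoxd4, which acts in the hindbrain and the neck, was measured by 1 probe. Its log2 signal was 2.65 and 2.51 in Jmjd3-/- against 2.05 and 2.37 in wild-type. The Jmjd3-/- arrays were both higher, but replicate 9 was 0.14 from wild-type replicate 4, while the wild-type arrays lay 0.31 apart. The log2 difference of Hoxd4 was 0.37 (SE 0.14, 95% interval -0.035 to 0.77, limma adjusted p = 0.470), and it was 0.21 without wild-type replicate 3 and 0.52 without wild-type replicate 4.

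Hoxd8, in the middle of the cluster, is a trunk gene. It read 1.08 and 0.68 in Jmjd3-/- against 0.45 and 0.64 in wild-type, so replicate 9 was only 0.039 above wild-type replicate 4. Its log2 difference was 0.33 (SE 0.17, 95% interval -0.16 to 0.83, limma adjusted p = 0.562), and it was 0.13 without Jmjd3-/- replicate 1 and 0.53 without replicate 9.

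Hoxd9, active in the lumbar and limb regions, was the member where the genotypes overlapped. The brighter probe, A_52_P385584, read 0.12 and 0.26 in Jmjd3-/- against 0.092 and 0.29 in wild-type, so both Jmjd3-/- values lay between the wild-type values. Its log2 difference was -0.00075 (SE 0.11, limma adjusted p = 0.999). The 95% interval ran from -0.32 to 0.32, so a difference of that size is not excluded by these arrays. The dimmer probe, A_51_P430728, had processed intensities of 342 and 354 in Jmjd3-/- and 313 and 399 in wild-type, and a log2 difference of 0.035 (SE 0.14, limma adjusted p = 0.950 across probes).

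The next gene along, Hoxd10, which shapes the lumbar and sacral spinal cord and the hindlimb, had the closest replicates of the cluster. Its processed intensity was 453 and 421 in Jmjd3-/- against 699 and 723 in wild-type. On the log2 scale the Jmjd3-/- values were -0.41 and -0.46 and the wild-type values 0.22 and 0.21. Each pair of replicates lay within 0.044, and the genotypes lay 0.65 apart. The Jmjd3-/- mean was 63.8% of wild-type, with a log2 difference of -0.65 (SE 0.073, 95% interval -0.86 to -0.44, limma unadjusted p = 0.00112, adjusted p = 0.195), and Hoxd10 had rank 78 by p among all genes. Over arrays left out in turn its difference ranged from -0.67 to -0.63, with adjusted p between 0.0660 and 0.975.

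Hoxd11 acts in the sacral region, the kidney and the limb. It read -1.73 and -1.98 in Jmjd3-/- against -1.09 and -1.18 in wild-type. Both Jmjd3-/- arrays were lower, and replicate 9 was the lower of them. The Jmjd3-/- mean was 60.7% of wild-type, a log2 difference of -0.72 (SE 0.12, 95% interval -1.06 to -0.38, limma adjusted p = 0.318). The scanner software marked the spot of Hoxd11 as an outlier on wild-type replicate 4.

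Hoxd13, the last gene of the cluster, patterns the digits and the end of the gut, and mutations in it cause limb malformations in mouse and human. Its brighter probe, A_52_P591310, read -0.27 and -0.59 in Jmjd3-/- against 0.33 and 0.19 in wild-type. The dimmer probe, A_51_P284571, had processed intensities of 42.7 and 28.8 in Jmjd3-/- and 57.7 and 57.3 in wild-type, again lower on both Jmjd3-/- arrays and lowest on replicate 9. The log2 differences were -0.69 (SE 0.15, 95% interval -1.11 to -0.28, limma adjusted p = 0.335) and -0.66 (SE 0.20, limma adjusted p = 0.482 across probes), and the Jmjd3-/- mean of the brighter probe was 61.9% of wild-type. The dimmer probe gave -0.24 with normexp and -0.41 without Jmjd3-/- replicate 9. Hoxd12, between Hoxd11 and Hoxd13, had intensities of 11.1 and 9.64 in Jmjd3-/- and 12.5 and 12.1 in wild-type, and a level of it was not detectable at this signal.

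**Figure D2:**
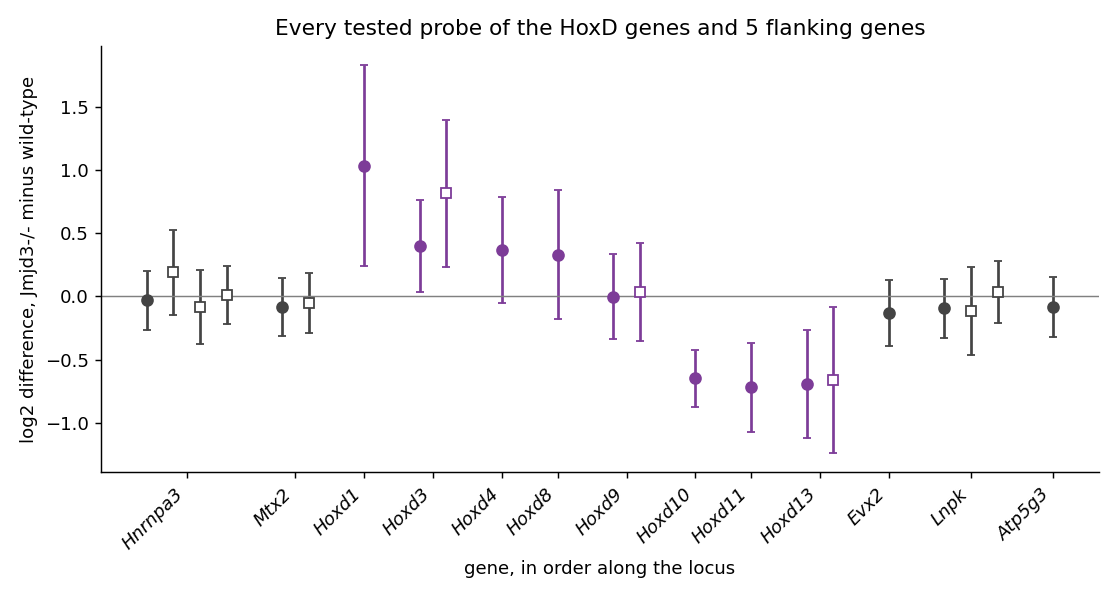
Log2 difference of every tested probe (vertical axis, Jmjd3-/- minus wild-type, with its 95% interval from limma across probes) for the HoxD genes in purple and 5 flanking genes in grey, in order along the locus (horizontal axis); filled circles are the brightest probe of a gene and open squares its other probes. The HoxD probes go from 1.04 at Hoxd1 to -0.72 at Hoxd11, and the brightest probes of the flanking genes lie between -0.13 and -0.032.

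The genes at the ends of the cluster differed in opposite directions on the same arrays, and a difference between genes within an array does not move with a scaling factor for that array. The mean log2 signal of Hoxd10, Hoxd11 and Hoxd13 less that of Hoxd1, Hoxd3 and Hoxd4 was -1.84 and -1.78 in Jmjd3-/- against -0.37 and -0.67 in wild-type. The size of that quantity depends on the probes and only its change between arrays can be read. The Jmjd3-/- arrays differed from each other by less than the wild-type arrays did, although Jmjd3-/- replicate 1 was further from wild-type at Hoxd1 and replicate 9 at Hoxd11 and Hoxd13. Hoxd13 less Hoxd1 was -1.63 and -1.22 in Jmjd3-/- against 0.41 and 0.19 in wild-type. Hoxd10 less its neighbour Hoxd9 was -0.54 and -0.71 against 0.13 and -0.084, so these adjacent genes differed unequally. With 2 arrays against 2 the smallest two-sided p of an exact permutation test is 0.333, and no test was made of these quantities.

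The genes beside the cluster had small differences. Mtx2, a mitochondrial outer membrane gene that lies next to Hoxd1, differed by -0.09 (SE 0.07). At the other end, Evx2, a homeobox gene next to Hoxd13, differed by -0.13 (SE 0.09) and Lnpk, an endoplasmic reticulum gene, by -0.09 (SE 0.07). Further out, Hnrnpa3, which encodes an RNA-binding protein, differed by -0.032 (SE 0.07), and Atp5g3, a subunit gene of the mitochondrial ATP synthase, by -0.08 (SE 0.08). Inside the cluster the antisense RNA gene Hoxd3os1, whose annotated span overlaps Hoxd3, read -3.28 and -3.36 in Jmjd3-/- against -3.31 and -3.21 in wild-type, a difference of -0.06 (SE 0.09).

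More distant neighbours spread more widely, from -0.57 to 0.25. Of the 12 flanking and antisense genes listed, 11 were tested, 0 passed (limma; 1 higher and 1 lower at an unadjusted p under 0.05), and the median log2 difference was -0.08 against -0.012 over all genes. Nfe2l2, which encodes a regulator of the response to oxidants, differed by -0.29 (SE 0.08), Chn1, a signalling gene of growing axons, by 0.25 (SE 0.08), Agps, a gene of ether lipid synthesis, by -0.07 (SE 0.09), Atf2, which encodes a transcription factor, by 0.034 (SE 0.10), and the acetylcholine receptor gene Chrna1 by -0.57 (SE 0.47). That most of them lay nearer 0 than the end genes of the cluster was not tested.

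Paralogs are the Hox genes of the same number in the other clusters, and they share much of their sequence and role. Of 20 listed paralogs of HoxD genes 15 were tested, 10 higher and 5 lower, with a median log2 difference of 0.31, and 0 passed (limma; 5 higher and 1 lower at an unadjusted p under 0.05). In group 1, Hoxb1 differed by 1.07 (SE 0.25), beside 1.04 for Hoxd1. In group 11, Hoxa11 differed by -0.89 (SE 0.22), beside -0.72 for Hoxd11. In group 8 the paralogs differed by 0.43 and 0.44, beside 0.33 for Hoxd8. In these 3 groups the HoxD gene and the paralogs given here had the same sign.

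In groups 9, 10 and 13 the HoxD gene lay below its paralogs. The group 9 paralogs differed by 0.35 to 0.71, with Hoxc9 at 0.71 (SE 0.18), while Hoxd9 had no separation. The group 10 paralogs differed by -0.05 and 0.11, beside -0.65 for Hoxd10, and Hoxa13 by -0.16, beside -0.69 for Hoxd13. Dimmer probes gave 0.54 (SE 0.33) for Hoxc10 and 0.22 (SE 0.45) for Hoxb9. Hoxa13 read -5.18 and -4.98 in Jmjd3-/- against -4.94 and -4.90 in wild-type. The lowest signals well above background were -5.58 to -5.29, so the size of its difference is limited by signal over background. Within an array, Hoxd10 less the mean of its paralogs was -0.60 and -0.31 in Jmjd3-/- against 0.20 and 0.25 in wild-type. For Hoxd9 the same quantity was -3.49 and -2.93 against -2.78 and -2.68, and for Hoxd13 it was 4.91 and 4.39 against 5.27 and 5.09, so in both the Jmjd3-/- arrays were lower. For Hoxd11 it was -2.09 and -2.92 against -2.59 and -2.76, where the genotypes overlapped. Each comparison rests on 2 arrays per genotype and was not tested.

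In groups 3 and 4 the order was the other way. The group 3 paralogs differed by -0.038 and 0.31, beside 0.40 for Hoxd3, and those of group 4 by -0.48 and 0.06, beside 0.37 for Hoxd4. These paralogs are less certain, since the probes of Hoxa3 gave -0.038 and 0.48 (SE 0.13). Those of Hoxa4 gave -0.48 and 3.81, the latter with an SE of 2.97.

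**Figure D3:**
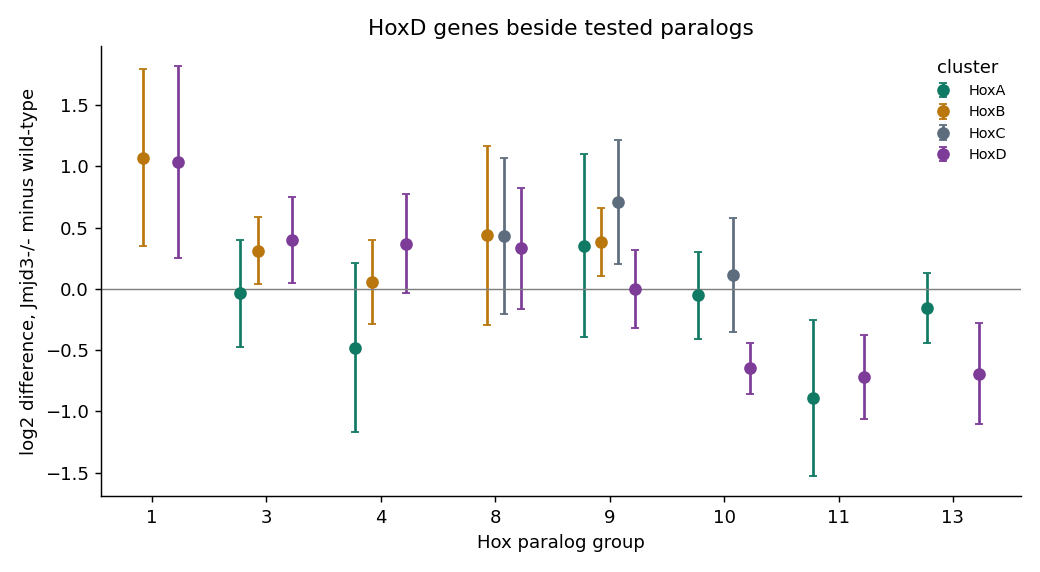
Log2 difference (vertical axis, Jmjd3-/- minus wild-type, with its 95% interval from limma across genes) of each HoxD gene beside tested paralogs of the HoxA, HoxB and HoxC clusters, by paralog group (horizontal axis). Hoxd10 lies at -0.65 beside paralogs at -0.05 and 0.11, while Hoxd1 at 1.04 lies beside Hoxb1 at 1.07.

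Genes that control Hox clusters were read beside the members. Of 20 signals and activators that feed into Hox genes, all 20 were tested, 14 were higher and 6 lower, 0 passed (limma; 7 higher and 1 lower at an unadjusted p under 0.05), and the median was 0.26. The caudal homeobox genes Cdx1 (0.79, SE 0.11) and Cdx2 (1.45, SE 0.23) activate central Hox genes, and both had higher signals in Jmjd3-/-. The tail bud signal gene Wnt3a was 1.42 apart (SE 0.25) and the retinoic acid receptor gene Rarg 0.46 (SE 0.09). The other retinoic acid receptor genes of the list were lower, Rara by -1.05 (SE 0.41) and Rarb by -0.70 (SE 0.43). The retinoic acid synthesis gene Aldh1a2 differed by -0.39 (SE 0.15) and the breakdown gene Cyp26a1 by 0.63 (SE 0.21). Rara, Rarb, Aldh1a2 and Cyp26a1 were named after their values were seen. Gdf11, whose product starts the switch from trunk to tail and is needed for the last Hox genes in mouse, differed by 0.08 (SE 0.08) and was named after its value was seen.

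The chromatin genes showed little difference apart from Kdm6b. Of 23 Polycomb and trithorax genes 22 were tested, 13 higher and 9 lower, with a median of 0.037 and 0 passing (limma; 2 higher and 2 lower at an unadjusted p under 0.05). Cbx7, which encodes a reader of the Polycomb mark, differed by 0.46 (SE 0.15), and Kmt2b, a methyltransferase gene, by 0.27 (SE 0.09). Of 8 cofactor genes, whose products bind DNA together with Hox proteins, 1 was higher and 7 lower, 0 passed (limma; 1 higher and 0 lower at an unadjusted p under 0.05), and the median was -0.14. Pknox2 differed by 0.36 (SE 0.09), Pknox1 by -0.31 (SE 0.12), Pbx3 by -0.31 (SE 0.13) and Meis1 by -0.41 (SE 0.23).

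Markers of the tissues in the sample differed between the genotypes as well. All 8 posterior identity markers had a higher mean in Jmjd3-/- with 0 passing (limma; 7 at an unadjusted p under 0.05), and their summed signal, in units of the 75th percentile, was 63.0 and 40.6 in Jmjd3-/- against 23.3 and 25.4 in wild-type. Of these 8, the signals list above holds 5 and the paralogs 1. The 4 tested of 9 head markers had a lower mean, and 1 of them, Barx1, passed (log2 difference -2.75, limma adjusted p = 0.0409), a call lost in 6 of 13 alternatives (adjusted p 0.0260 to 0.315, limma), with a sum of 0.762 and 1.71 against 4.36 and 5.07. Of the rest, Otx2 and Six3, which define the forebrain, were not well above background on any array. The median difference from the wild-type mean was 1.73 and 1.05 for the posterior markers in Jmjd3-/-, and -2.32 and -0.97 for the head markers. Replicate 1 was thus the further from wild-type in these lists, as it was at Hoxd1, Hoxd4 and Hoxd8. Replicate 9 was the further at Hoxd3, Hoxd10, Hoxd11 and Hoxd13. At Hoxd3 and Hoxd10, though, the Jmjd3-/- arrays lay only 0.047 and 0.044 apart. The part of tissue content in the HoxD differences was not tested.

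Tissues that use the last HoxD genes were represented by further lists. Of 14 limb bud and lateral plate genes 13 were tested, 11 lower and 2 higher, with a sum of 37.5 and 41.0 in Jmjd3-/- against 41.6 and 39.7 in wild-type. Prrx1, a limb mesenchyme gene, differed by -0.74 (SE 0.10), the forelimb gene Tbx5 by -1.05 (SE 0.16), the limb signal gene Fgf10 by -0.38 (SE 0.09), and the LIM homeobox gene Lhx9 by -3.84 (SE 1.13). Among hindlimb genes, named after their values were seen, Pitx1 differed by 0.23 (SE 0.07) and Tbx4 by -0.025 (SE 0.36), the latter with overlapping arrays. Of 10 somite genes 9 were lower (sum 44.0 and 41.6 against 40.6 and 41.5), and of 11 tested of 12 neural genes 10 were lower (sum 6.02 and 8.66 against 10.3 and 10.3). Among the lower genes, Myf5 in the somite list and Dcx in the neural list passed the filter only through wild-type, where they were higher. Myf5 was well above background on no Jmjd3-/- array, so it has only a bound, at least 1.30-fold lower. The brightest gene weighs most in a sum, and this was Pitx1 in the limb list and Tcf15 in the somite list. Tcf15, named after its value was seen, was the 1 higher somite gene, at 0.28 (SE 0.09). The limb and somite sums therefore say little of the dimmer genes that were lower. Of 10 intermediate mesoderm and hindgut genes 8 were tested, 5 higher and 3 lower (sum 10.98 and 9.66 against 9.72 and 9.57). In these 4 lists 0 genes passed (limma; at an unadjusted p under 0.05, 1 limb gene was higher and 5 lower, 1 somite gene higher and 4 lower, 0 neural genes higher and 3 lower, and 2 of the last list higher and 1 lower). Over all genes, 7218 of 13584 had a lower mean in Jmjd3-/-. The part of any of these in the lower signal of Hoxd10, Hoxd11 and Hoxd13 was not tested.

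**Figure D4:**
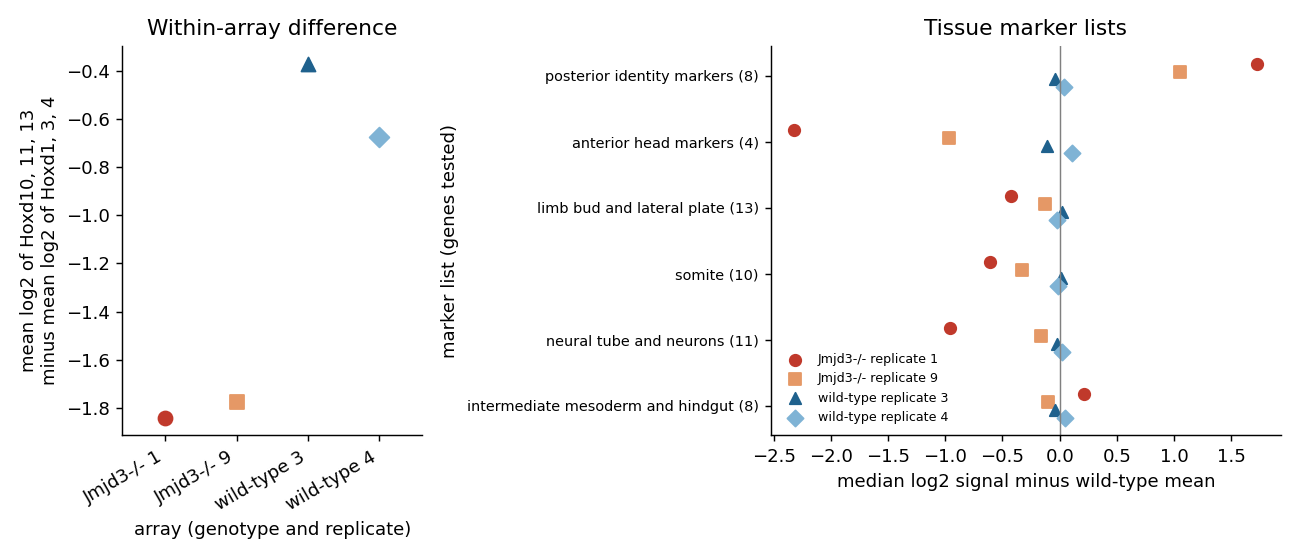
Left, the mean log2 signal of Hoxd10, Hoxd11 and Hoxd13 less that of Hoxd1, Hoxd3 and Hoxd4 (vertical axis) for each array (horizontal axis), at -1.84 and -1.78 in Jmjd3-/- and -0.37 and -0.67 in wild-type. Right, the median log2 signal of 6 marker lists on each array, less the wild-type mean of each gene (horizontal axis); Jmjd3-/- replicate 1 lies furthest from wild-type in each list, and the posterior markers lie at 1.73 and 1.05 in Jmjd3-/-.

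The genes most like the ends of the cluster were found over the 4 arrays, by the root mean square difference of log2 signals after each gene's mean was removed. Nearest to Hoxd1 were Nkx1-2 (0.031), a homeobox gene of the tail-end neural progenitors, Cited1 (0.032), which encodes a transcriptional coregulator, and S1pr5 (0.050), a lipid receptor gene. Nkx1-2 differed by 1.09 (SE 0.27), Cited1 by 1.07 (SE 0.29) and S1pr5 by 1.03 (SE 0.27). Nearest to Hoxd13 was its neighbour in the cluster, Hoxd11 (0.035), followed by Mef2c (0.045), which encodes a transcription factor of muscle and vessels and differed by -0.73 (SE 0.18). These genes were chosen for their likeness to Hoxd1 or Hoxd13, so differences of similar size follow from the choice. The likeness rests on 4 arrays and is a description only.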

How the data were processed

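Per the file headers, each scanner file holds spot intensity from a 1-colour Agilent array read by Agilent Feature Extraction 10.7.3.1, background-corrected and detrended within the array, with no step between arrays. Flags for spots above background or marked as outliers were used as deposited. The deposited table of log2 values served as an alternative. Its scale, centring and direction are not stated in the sources used here. Set against the scanner values, scaled as below and centred on the wild-type mean of each probe, 99.9% of its values lay within 0.01 and r across probes was 0.995 to 0.997, which settles all 3. Median values by column were -0.021 and 0.055 (Jmjd3-/-) and 0.020 and -0.020 (wild-type).

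Of 45018 spots 1639 controls were left out. Log2 spot values were averaged by probe, and each array was then set to 0 at its 75th percentile. Probes were named from accessions through the RefSeq gene table of GRCm38.p6 (26690 by accession, 5 by symbol, 23 by synonym, 14456 unnamed), whose coordinates were not used since the headers name mm9. Promoter windows carry their own build.

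The brightest probe stood for a gene, and a gene was tested if both arrays of at least 1 genotype had that probe well above background. The comparison used limma 3.58.1 under R 4.3.3 (lmFit, eBayes, Benjamini-Hochberg over all genes, or all probes where said), checked on simulated data. Nothing says that samples came from separate embryos or litters, so p-values cover only how far apart these samples lie, which may be technical. Members, lists and naming rules (all members; up to 4 genes of a list by p; the nearest profiles) were chosen with earlier results of these data known. Not every gene chosen by these rules is reported here. The files hold no mean spot signal, so normexp used the median spot signal.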

Additional observations from a re-analysis of the deposited data

How the results depend on the processing

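Across the alternatives, 0 members and 0 probes of HoxD passed an adjusted p under 0.05, with limma as the tool in each. With the planned processing, 5 of 8 members were under an unadjusted p of 0.05 (limma), against 11.1% of all genes in either direction. Of 135 alternative values of single genes and probes, 129 kept their sign and their side of the threshold. The other 6 were Hoxd9, whose value was near 0: its brighter probe gave 0.00028 without outlier spots, 0.017 with the mean of both probes, and between -0.10 and 0.098 with arrays left out. Its dimmer probe gave -0.11 to 0.18 with arrays left out. The difference between the cluster ends was -1.29 as planned, -1.09 with normexp and -1.44 to -1.14 with arrays left out. Over all genes, 3 were higher and 2 lower as planned. That was 0 and 0 with quantile normalisation, with no filter and with a filter on all 4 arrays, 1 and 1 with normexp, 1 higher with a variance trend, and 4 lower with median scaling or the mean of a gene's probes. With arrays left out it was 0 to 47 higher and 0 to 120 lower, the most without Jmjd3-/- replicate 9, where a lone array is assumed to vary like the wild-type pair. Hoxd11 had no value without outlier spots. Dim probes, Hoxd12 above all, are limited by signal over background. No paired analysis was possible because the genotypes share no replicate number.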
